A study of Mus musculus with 8 samples.

Results

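The genes described here encode the calmodulin-dependent kinases CaM kinase II and CaM kinase IV and the calcium-dependent phosphatase calcineurin. They were taken as all probe sets annotated to a single symbol among Camk2a, Camk2b, Camk2d, Camk2g, Camk4, Ppp3ca, Ppp3cb and Ppp3r1, which gave 7 of the 8252 named genes and 8 probe sets of the 12488 in the table: Camk2a had 2, Camk2b, Camk2d, Camk4, Ppp3ca, Ppp3cb and Ppp3r1 had 1 each, and no probe set carried the single symbol Camk2g. Wild-type (C57Bl6) mice lost 1 eye at postnatal day 20, and their visual cortex was taken on postnatal day 24, a delay of 4 days. Deprived cortex lay contralateral to the removed eye (4 arrays), and non-deprived cortex lay ipsilateral to it (4 arrays). Mice of both groups had lost an eye, and mice with both eyes intact were not analysed here. The labels speak of 4 mice and the design text of pooled samples. It is therefore not settled how many animals stand behind an array, and p-values measure only the variation among these arrays, part of which may be technical.

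Calcium that enters a neuron through NMDA receptors and voltage-gated channels binds calmodulin, and calcium-loaded calmodulin switches on both kinases and calcineurin. CaM kinase II is a large holoenzyme concentrated at excitatory synapses, where its alpha and beta subunits are the main forebrain forms and where it phosphorylates AMPA receptors. CaM kinase IV works mainly in the nucleus and phosphorylates CREB, a factor that binds the cAMP response element of activity-regulated promoters. Calcineurin opposes many of these phosphorylations and also releases NFAT factors into the nucleus. Interference with either enzyme system is known to alter the plasticity of the visual cortex after closure of an eye.

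Promoters are shown for 2 calcineurin genes and for Fos, a textbook target of calcium signalling to CREB, because these genes stand at opposite ends of the pathway whose mRNA levels were compared. The windows are the 250 bases before the annotated start, 5′ to 3′, from RefSeq on build GRCm38.p6. Capitals mark the letters TGACG, a part of the cAMP response element and not the whole of it, or the reverse complement CGTCA. The window of Ppp3r1 is chr11:17159048-17159297 on the plus strand, that of Ppp3cb chr14:20546574-20546823 on the minus strand and that of Fos chr12:85473640-85473889 on the plus strand.
Ppp3r1: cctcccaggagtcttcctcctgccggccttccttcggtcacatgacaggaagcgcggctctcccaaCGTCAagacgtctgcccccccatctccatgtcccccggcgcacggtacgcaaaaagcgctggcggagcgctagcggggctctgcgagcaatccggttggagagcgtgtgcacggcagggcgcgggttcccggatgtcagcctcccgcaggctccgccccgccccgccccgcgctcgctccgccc
Ppp3cb: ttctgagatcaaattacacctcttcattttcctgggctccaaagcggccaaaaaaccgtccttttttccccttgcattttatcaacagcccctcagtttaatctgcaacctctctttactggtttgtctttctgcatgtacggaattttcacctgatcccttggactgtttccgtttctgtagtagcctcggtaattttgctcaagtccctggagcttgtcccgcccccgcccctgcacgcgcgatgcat
Fos: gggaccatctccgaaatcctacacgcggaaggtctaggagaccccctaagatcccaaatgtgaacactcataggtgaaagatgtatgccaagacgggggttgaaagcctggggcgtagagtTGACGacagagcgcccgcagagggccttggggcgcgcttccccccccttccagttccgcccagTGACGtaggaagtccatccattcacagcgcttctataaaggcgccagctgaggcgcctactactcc
The Fos window held 2 matches on either strand, the Ppp3r1 window 1 and the Ppp3cb window 0. Of the 8 genes asked for, 4 had a window in the RefSeq table, and those of Camk2b and Camk2d also held 0. Among all 32851 windows of the table, 17.8% held a match. The bases after the start were not searched, and a match is a description of letters only.

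Signals on the arrays are linear and in arbitrary units, with each array scaled to the same trimmed mean of 500. Median signals were 183 to 209, the correlation between arrays on the log2 scale was 0.948 to 0.975, and the number of arrays limits the precision. The tissue label was checked against marker genes. The neocortical neuron genes Tbr1, Neurod2 and Neurod6 all passed the filter. Their summed signals were 5513 to 7232 in deprived and 5659 to 9240 in non-deprived cortex, with 3 of 3 differences below 0 (-0.34 to -0.04). All 4 choroid plexus markers lay below the filter, as did 3 of 4 hippocampal markers. The 4 measured thalamus markers and the 2 measured striatum markers passed it. The remaining hippocampal marker, Wfs1, lay at -0.28, with all deprived arrays below the others, where 2.04% of all probe sets separated in either direction. Thalamus markers, 4 of 4 with differences above 0, summed to 1918 to 2598 in deprived and 1761 to 2335 in non-deprived cortex, and their part in the results below was not tested. Of these markers Calb2 is also on the interneuron list and Prkcd on that of PKA and PKC. Markers below 0 numbered 6 of 9 for interneurons, 4 of 7 for astrocytes, 5 of 6 for oligodendrocytes, 3 of 7 for microglia, 3 of 8 for endothelium and 1 of 2 each for blood and striatum. In cortical tissue, fewer cells of a type and less RNA per cell cannot be told apart.

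None of the 8 probe sets of CaM kinases and calcineurin differed between the hemispheres by limma's test adjusted over all 7453 probe sets kept. The call rate among all probe sets was also 0% lower and 0% higher. An unadjusted limma p under 0.05 was reached by 0 of 8, against 2.67% of all probe sets. With the replicate number as a block it was again reached by 0 of 8, against 7.03% of all probe sets. SE, p-values and intervals below come from the fit without this block unless another fit is named. The fit without the block ignores any pairing of same-numbered arrays. In 0 of 8 did the values of the groups separate, against 2.04% of all probe sets. Differences are deprived minus non-deprived in log2(signal + 15.3), and they ran from -0.09 for Ppp3cb to 0.23 for Camk4. Of the 8, 6 lay above 0 and 2 below it, where 45.1% of all probe sets were below 0. The median was 0.09, against 0.02 for all probe sets. All 8 probe sets passed the filter, though Camk2d and Camk4 did so narrowly, the filter lying at a signal of about 109.9.

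**Figure D1:**
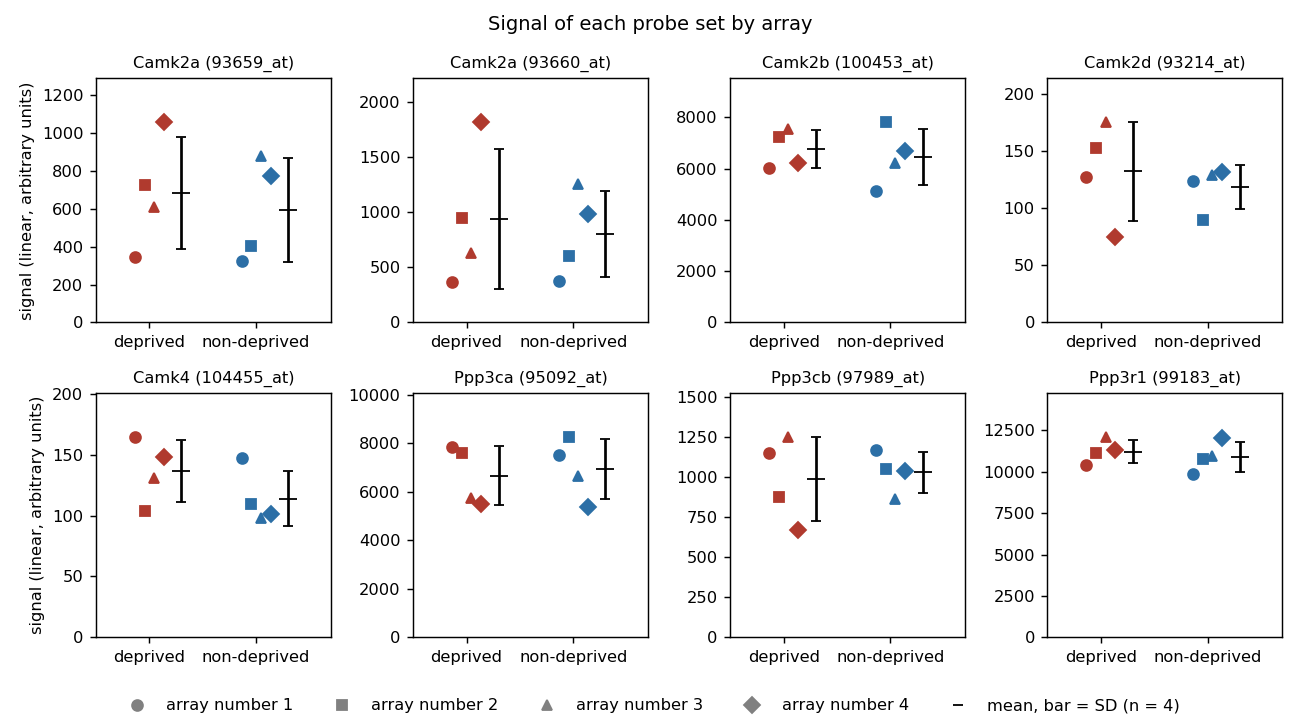
Signal of each probe set on each array (vertical axis, linear arbitrary units, from 0), deprived cortex in red at the left and non-deprived cortex in blue at the right of each panel. Marker shapes give the array number, and the black bars are the mean and SD (n = 4). The groups overlap in all 8 panels, and the spread is widest in both Camk2a panels.

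Camk2a, which encodes the alpha subunit of CaM kinase II found mainly in excitatory forebrain neurons, varied more between arrays than between hemispheres. Probe set 93659_at had signals of 343, 726, 612 and 1056 in deprived cortex, against 322, 403, 882 and 773 in non-deprived cortex (replicates 1 to 4). Probe set 93660_at had 362, 949, 628 and 1814 in deprived cortex, against 374, 602, 1254 and 984 in non-deprived cortex. In both probe sets the arrays numbered 1 were the lowest of their group, deprived replicate 4 was the highest array of all, and the groups overlapped throughout.

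The Camk2a difference was 0.21 ± 0.36 (SE) for 93659_at, with means of 684 ± 296 in deprived and 595 ± 274 in non-deprived cortex (SD, n = 4 each). It was 0.12 ± 0.45 (SE) for 93660_at, with 939 ± 631 in deprived and 804 ± 392 in non-deprived cortex (SD, n = 4 each). Both had a limma adjusted p of 0.995. The 95% interval of the fold allowed 0.671 to 2.00 for 93659_at and 0.550 to 2.16 for 93660_at. This fit leaves out the replicate number, and in it neither a loss nor a gain of moderate size was measurable for this gene. With the replicate number as a fixed block the SE was 0.20 for 93659_at and 0.26 for 93660_at, with unchanged differences. Same-numbered arrays also went both ways: deprived replicate 3 lay below non-deprived replicate 3 in both probe sets (-0.52 and -0.98), and deprived replicate 2 lay above non-deprived replicate 2 (0.83 and 0.64). The differences became -0.03 and -0.27 without deprived replicate 4, -0.04 and -0.19 without non-deprived replicate 1, and 0.50 and 0.49 without deprived replicate 1.

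The large spread of Camk2a was shared by its probe sets. Their deviations from the group means correlated at r = 0.97 over the 8 arrays, a description with no p, since both probe sets read the same RNA samples. The highest array was 3.28 times the lowest in 93659_at and 5.01 times in 93660_at. The SD within groups on the log2 scale was 0.67 and 0.87, against a median of 0.27 over all probe sets kept. Among the 500 probe sets nearest in mean signal, 99.6% had a smaller SD than 93659_at and 100% a smaller one than 93660_at. The corresponding SD was 0.21 for Camk2b and 0.11 for Ppp3r1.

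**Figure D2:**
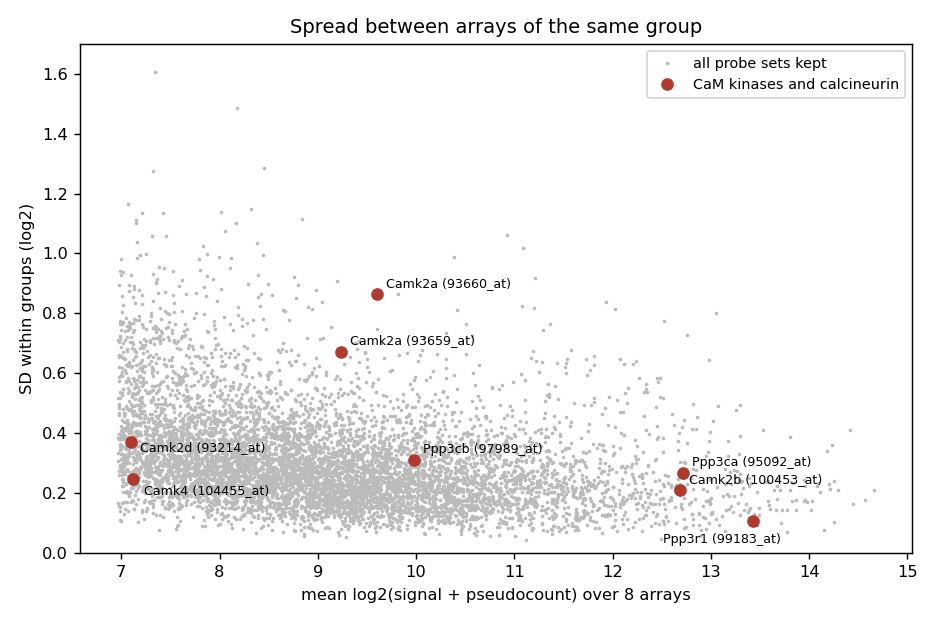
SD of log2(signal + pseudocount) within groups (vertical axis) against the mean over the 8 arrays (horizontal axis) for the 7453 probe sets kept, with the CaM kinase and calcineurin probe sets in red. The Camk2a probe sets, at 0.67 and 0.87, lie above nearly all probe sets of like signal, while Ppp3r1 at 0.11 lies near the lower edge.

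RNA integrity was gauged from the actin and Gapdh controls, as 3′ over 5′ signal. The actin ratio was 1.60, 1.91, 1.71 and 1.33 in deprived cortex, against 1.63, 1.43, 1.25 and 1.26 in non-deprived cortex (replicates 1 to 4). The 3 arrays with the highest Camk2a 93660_at signal in the series were deprived replicate 4 and non-deprived replicates 3 and 4, which also had the 3 lowest actin ratios. Deprived replicate 2, with the highest actin ratio (1.91), had a signal of 949, above the 362 of deprived replicate 1 (1.60). The Gapdh ratio was 0.856, 0.801, 0.831 and 0.882 in deprived cortex, against 0.871, 0.977, 0.856 and 0.887 in non-deprived cortex. It was lower in the deprived array of 4 of 4 same-numbered pairs, and the same 3 arrays were not the lowest for it. With the log2 actin ratio as a covariate the Camk2a differences were 0.69 ± 0.36 and 0.77 ± 0.43 (SE), each with a limma adjusted p of 0.999. With the Gapdh ratio as a covariate they were 0.04 and 0.09. The summed excitatory neuron markers were highest in the arrays numbered 2 (7232 in deprived and 9240 in non-deprived cortex), which were not the highest for Camk2a in either group. The part of RNA integrity or of cell content in the spread of Camk2a was not tested.

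Camk2b encodes the beta subunit, which carries an actin-binding stretch and ties the holoenzyme to the cytoskeleton of dendritic spines. Its signal was 6035, 7250, 7554 and 6203 in deprived cortex, against 5131, 7804, 6210 and 6681 in non-deprived cortex. All deprived values lay within the non-deprived range. The means were 6760 ± 754 in deprived and 6456 ± 1108 in non-deprived cortex (SD, n = 4 each), a difference of 0.08 ± 0.15 (SE), limma adjusted p = 0.995. The 95% interval of the fold was 0.841 to 1.32. Without non-deprived replicate 1 the difference was -0.03.

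The relation of alpha to beta within an array was examined because the subunits build mixed holoenzymes. Log2 signal of Camk2a 93660_at minus that of Camk2b was -4.00, -2.91, -3.56 and -1.76 in deprived cortex, against -3.72, -3.66, -2.29 and -2.74 in non-deprived cortex. Each value compares different probes and is no measure of the subunit ratio, so only its shift between groups can be read. The group means were -3.06 ± 0.97 in deprived and -3.11 ± 0.70 in non-deprived cortex (SD, n = 4 each), a shift of 0.05, far smaller than the spread between arrays. The shift was 0.48 without both arrays numbered 3 and -0.38 without deprived replicate 4.

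Camk2d encodes the delta subunit, best known from heart muscle and also present in brain. Its signal was low, at 127, 152, 175 and 74.5 in deprived cortex, against 124, 89.8, 129 and 131 in non-deprived cortex. Deprived cortex held both the lowest and the highest of the 8 values. The difference was 0.10 ± 0.27 (SE), limma adjusted p = 0.995, with a 95% interval of the fold of 0.709 to 1.62. It was -0.13 with the actin ratio and -0.25 with the Gapdh ratio as a covariate.

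Camk4 encodes CaM kinase IV, the nuclear kinase of the pathway. Its signal was 165, 104, 131 and 148 in deprived cortex, against 147, 109, 97.9 and 101 in non-deprived cortex. Of the 4 same-numbered pairs, 3 were higher in the deprived array and the arrays numbered 2 were not. The means were 137 ± 25.9 in deprived and 114 ± 22.7 in non-deprived cortex (SD, n = 4 each). The difference of 0.23 ± 0.23 (SE) had the smallest p of the group, 0.339 before adjustment and 0.995 after it in limma, a rank of 2229 among 7453. The 95% interval of the fold was 0.825 to 1.67. At so low a signal the pseudocount understates a change, and the difference was 0.26 with a pseudocount of 1 and 0.19 with 50.

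Ppp3ca and Ppp3cb encode the catalytic subunits of calcineurin, of which the alpha form is the more abundant in brain. Ppp3ca had signals of 7831, 7607, 5728 and 5489 in deprived cortex, against 7523, 8242, 6652 and 5373 in non-deprived cortex. In each group the arrays numbered 1 and 2 were the high pair and those numbered 3 and 4 the low pair, with no overlap between those pairs over all 8 arrays. Between hemispheres, Ppp3ca differed by -0.06 ± 0.17 (SE), limma adjusted p = 0.995, with a 95% interval of the fold of 0.741 to 1.24. The same-numbered pairs differed by -0.22 to 0.06.

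Ppp3cb had signals of 1152, 880, 1250 and 672 in deprived cortex, against 1170, 1049, 863 and 1040 in non-deprived cortex. The deprived values spanned both ends of the range. The means were 989 ± 263 in deprived and 1031 ± 127 in non-deprived cortex (SD, n = 4 each), a difference of -0.09 ± 0.19 (SE), limma adjusted p = 0.995. It was 0.08 without deprived replicate 4 and -0.22 without deprived replicate 3.

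Ppp3r1 encodes calcineurin B, the EF-hand subunit that senses calcium directly. It gave the steadiest signal of the group, at 10386, 11117, 12089 and 11297 in deprived cortex, against 9855, 10752, 10984 and 12056 in non-deprived cortex. The ranges overlapped almost entirely. The means were 11222 ± 699 in deprived and 10912 ± 905 in non-deprived cortex (SD, n = 4 each), and the difference was 0.04 ± 0.12 (SE), limma adjusted p = 0.995. Its 95% interval of the fold, 0.862 to 1.23, was the narrowest of the 8.

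Genes whose expression calcium signalling induces are shown for scale. Fos had 1272, 1500, 1668 and 1537 in deprived cortex, against 2424, 3774, 2316 and 2754 in non-deprived cortex, with no overlap. Its difference of -0.89 ± 0.17 (SE) did not pass either, with a limma p of 1.97e-04 and an adjusted p of 0.995 over all probe sets. With the replicate number as a block that limma p was 7.53e-05, and 0.116 after adjustment. In that blocked fit the limma adjusted p was also 0.116 for Junb, Nr4a1 and Bdnf, and 0.152 for Egr1. Nr4a1, an orphan nuclear receptor, lay at -0.83, the zinc-finger factor Egr1 at -0.71, the AP-1 factor Junb at -0.68 and the neurotrophin gene Bdnf at -0.86. Ier2, Egr2 and Fosb lay at -0.62, -0.61 and -0.56, and Btg2 at -0.48. The groups overlapped in Bdnf and Btg2 and not in the other genes of this set. Of all probe sets, 2.04% had groups without overlap in either direction. The genes of this set were picked with their lower values already known, and 9 of 9 measured lay below 0. Fos had the lowest value of the set. In the fit without the replicate block, the other 8 genes lay inside the 95% interval of Camk2a 93660_at, whose lower bound was -0.86. Of the 8 intervals of the CaM kinase and calcineurin probe sets, 8 lay wholly above the Fos value. Those above the values of Egr1, Nr4a1, Bdnf, Junb, Egr2 and Ier2 numbered 7 each, against 6 for Fosb and 4 for Btg2. All these intervals come from the fit without the replicate block. With the fixed block the SE of Camk2a 93660_at was 0.26, against 0.45 without it, so these counts may differ there. The difference between these genes and the CaM kinase and calcineurin genes was not itself tested.

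**Figure D3:**
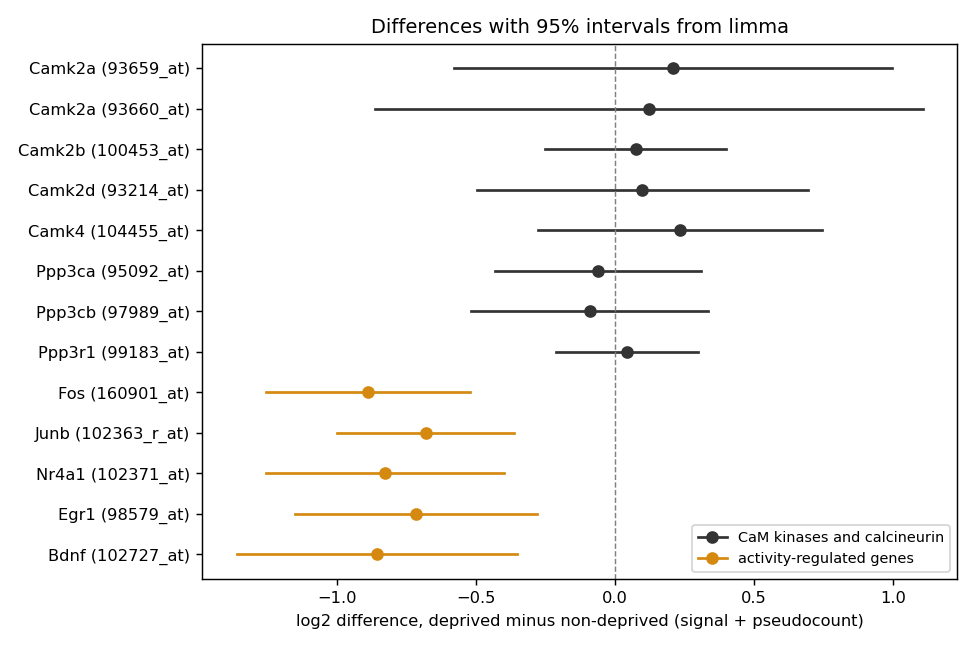
Log2 difference, deprived minus non-deprived (horizontal axis), for each CaM kinase and calcineurin probe set (black) and for 5 activity-regulated genes (orange). The 95% intervals are from limma over 8 arrays without the replicate block. All 8 black intervals cross 0, and those of Camk2a are the widest.

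The wider pathway was described by lists of genes, each gene by its brightest probe set. By limma's adjusted p, 0 genes of any list were called in either direction, as for all 5675 genes kept, whose median difference was 0.02 with 46.1% below 0. Of calmodulin and its binding proteins, 6 were measured, 3 below 0, with a median of 0.03. Marcksl1 lay at -0.22 ± 0.20 and Marcks at 0.20 ± 0.19 (SE), and both encode membrane proteins that bind calmodulin and actin. With the actin ratio as a covariate those values were 0.09 and -0.01. Of the other CaM kinases and their regulators only Pnck, a CaM kinase I family gene, was measured, at 0.20 ± 0.17 (SE).

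Calcineurin partners outside the 8 probe sets had a median of 0.07, with 2 of 5 below 0. Fkbp1a, whose product binds the drug FK506 to form a calcineurin inhibitor, was lower in the deprived array of 4 of 4 same-numbered pairs, with means of 6077 ± 1310 in deprived and 7095 ± 866 in non-deprived cortex (SD, n = 4 each). Its difference of -0.24 ± 0.16 (SE) did not pass, at a limma p of 0.167 (0.0425 with the replicate number as a block, 0.703 adjusted). Here and below, genes given with a count of 4 of 4 pairs were named for a small p within their list. The share of all probe sets with such a count was not computed, so these counts are descriptions only. Rcan3, of the regulator of calcineurin family, lay at 0.55 ± 0.47 (SE), and at -0.06 without non-deprived replicate 3, whose signal of 57.4 was far below the other arrays.

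Transcription factors regulated by calcineurin had differences above 0 in 6 of 6 measured genes, of which 0 passed the test. Their median was 0.26, and 46.1% of all genes kept lay below 0. Nfatc1, also of this list and on the array, lay below the filter and was not tested. Mef2d, a MADS-box factor that calcineurin dephosphorylates in neurons, had 5433, 8904, 9103 and 6043 in deprived cortex, against 4343, 8047, 5787 and 5665 in non-deprived cortex. It was higher in the deprived array of 4 of 4 same-numbered pairs, by 0.30 ± 0.21 (SE) on average, but the groups overlapped and the limma p was 0.184 (0.0237 with the replicate number as a block, 0.703 adjusted). Mef2b, of the same family, lay at 0.37 ± 0.21 (SE) and was also higher in 4 of 4 pairs. Mef2d and Mef2b were named for the smallest p of this list, so their pair counts are descriptions only. The other measured genes, named after their values were seen, were Nfatc3 at 0.33, Nfatc2 at 0.21, Mef2a at 0.19 and Mef2c at 0.11. The median was 0.17 to 0.33 with arrays left out.

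**Figure D4:**
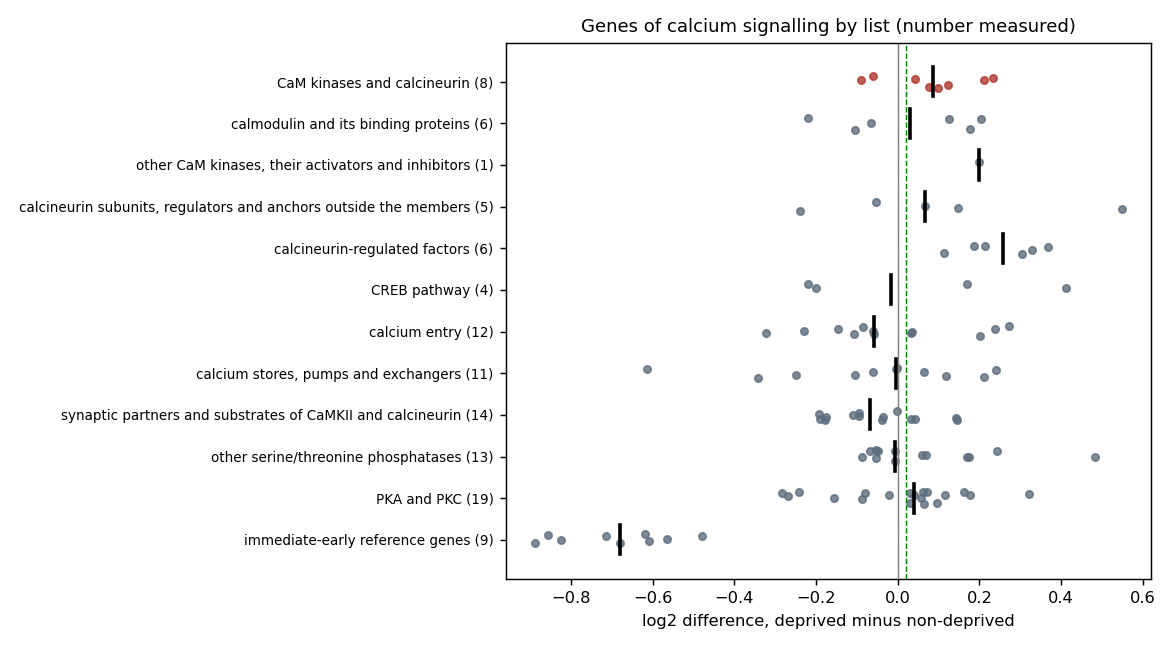
Log2 difference, deprived minus non-deprived (horizontal axis), of each measured gene of the pathway lists, with the CaM kinase and calcineurin probe sets in red at the top. Black bars are list medians, the dashed green line is the median of all genes kept (0.02), and numbers in parentheses count the measured genes. The calcineurin-regulated factors lie above 0 (median 0.26) and the immediate-early genes below it (median -0.68), and 0 genes passed the adjusted test.

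Of the CREB pathway 4 genes were measured, with a median of -0.02. Crebbp, the histone acetyltransferase that binds phosphorylated CREB, had 928, 1580, 1462 and 1100 in deprived cortex, against 796, 1135, 978 and 840 in non-deprived cortex. It was higher in the deprived array of 4 of 4 same-numbered pairs, with a difference of 0.41 ± 0.19 (SE) and a limma p of 0.0502 that was 0.995 after adjustment. With the replicate number as a block that p was 0.00393, and 0.636 after adjustment. Atf4, a stress-responsive factor that can bind the cAMP response element, was lower in 4 of 4 pairs, at -0.22 ± 0.14 (SE). Crebbp and Atf4 were likewise named for the smallest p of their list, so their pair counts are descriptions only. The Creb1 probe sets lay below the filter and were not tested.

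On the side of calcium entry, 12 channel and receptor genes had a median of -0.06, with 7 below 0. Cacng2, which encodes stargazin, a partner that brings AMPA receptors to the synapse, had 726, 704, 678 and 753 in deprived cortex, against 741, 1016, 995 and 865 in non-deprived cortex. Its difference of -0.32 ± 0.14 (SE) had an unadjusted limma p of 0.0432 (0.0311 with the replicate number as a block) and an adjusted p of 0.995. Non-deprived replicate 1 fell within the deprived range. Cacna1c, the pore subunit of an L-type channel that signals to the nucleus, lay at 0.24 ± 0.17 (SE), and at 0.13 without deprived replicate 4 and 0.041 without both arrays numbered 4.

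Stores, pumps and exchangers (11 genes) had a median of -0.00389, with Stim1, the calcium sensor of the endoplasmic reticulum, at -0.34 ± 0.16 and the calcium sensor Ncs1 at -0.61 ± 0.41 (SE). Stim1 did not pass, at a limma p of 0.0581 (0.0392 with the replicate number as a block, 0.703 adjusted). The Ncs1 value was -0.17 without deprived replicate 3, whose signal was 43.0 against 151 to 273 in the other deprived arrays. Synaptic partners and substrates of CaM kinase II and calcineurin had a median of -0.07, with 10 of 14 below 0. Of these, Dlg1, a scaffold of glutamate receptors, lay at 0.14 ± 0.13 and the AMPA receptor gene Gria3 at -0.19 ± 0.18 (SE).

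The genes whose signal followed Camk2a and Ppp3ca most closely were taken by Pearson correlation of deviations from group means over the 8 arrays. For Camk2a 93660_at, among 6749 probe sets, these were Atxn7l3b (r = 0.988), Lman2 (0.983) and Akt1s1 (0.979). For Ppp3ca they were Trak1 (0.988), Spice1 (0.985) and Recql5 (0.981). With so few arrays high values are common, the 99th percentile of r being 0.871 for Camk2a and 0.884 for Ppp3ca, and the arrays share any effect of animal or handling. Between the 8 probe sets themselves, Camk2a 93660_at and Ppp3cb had r = -0.87 and Ppp3ca and Ppp3r1 had -0.77, as descriptions with no p.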

How the data were processed

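Total RNA of visual cortex was labelled with biotin and hybridised to 8 arrays. The authors deposited 1 linear signal intensity for each probe set, computed with MAS5 per the submitters' processing notes. Its version is not stated in the labels. MAS5 combines perfect-match and mismatch probes and scales each array. Arrays were rescaled to a 2% trimmed mean of 500, the 66 controls were dropped, and values became log2(signal + 15.3), where 15.3 is the 10th percentile of signals. Probe sets with a mean above the 40th percentile (7453 of 12422) were tested with limma 3.58.1 in R 4.3.3 (lmFit, eBayes with an intensity trend, two-sided, Benjamini-Hochberg over all, threshold 0.05). Differences of dim genes are understated. Symbols came from the platform annotation, updated through Entrez identifiers for 10817 of 10833 single-symbol probe sets. The table had 0 unused columns of sample values.

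The lists were calmodulin and its binding proteins, other CaM kinases, calcineurin partners, calcineurin-regulated factors, the CREB pathway, calcium entry, stores and pumps, synaptic partners, other phosphatases, PKA and PKC, immediate-early genes and cell type markers. Named were all member probe sets, 5 activity-regulated genes, the 2 smallest p of each list, genes whose groups separated (Ier2, Fosb and Egr2 beside those given) and the 3 genes most like Camk2a and Ppp3ca. Members and lists were chosen with earlier results of these data known. Deviations of same-numbered arrays correlated at 0.16 to 0.42, against -0.27 to 0.12 between different numbers, so the numbers were taken to pair the arrays. The main fit nevertheless left this pairing out, and the replicate block was run only as an alternative. For the CaM kinase and calcineurin probe sets the SE ran from 0.12 (Ppp3r1) to 0.45 (Camk2a 93660_at) in the main fit. With the fixed block it ran from 0.093 (Ppp3r1) to 0.27 (Camk2d). Alternatives were other pseudocounts, filters and scalings, no trend, array weights, the replicate block, control ratios as covariates, averaged probe sets and arrays left out. The fit was tested on simulated data. It recovered 62 of 100 changes of 1 log2 unit and 82 of 100 changes of 2 log2 units. Of its 149 calls, 5 were false. Plots used matplotlib 3.10.9 (Python 3.11.15).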

Additional observations from a re-analysis of the deposited data

Results flagged for a closer look

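In 3 of 70 sets of 4 replicates, 1 array lay apart from the rest by Dixon's criterion on log2(signal + 15.3). Chance alone gives about 1 in 20, or 3.5 sets. For Camk2d, non-deprived replicate 2 was low, at a signal of 89.8 against 124 to 131, a gap of 0.845 of the group's range on the log2 scale. On linear signals that share was 0.822, which is below Dixon's critical value. For Marcks, non-deprived replicate 2 was high, at 2939 against 1892 to 2006 (0.867 on the log2 scale and 0.891 on linear signals). For Junb, deprived replicate 4 was high, at 1128 against 822 to 866 (0.838 and 0.858 on those scales).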

How the results depend on the processing

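The number of probe sets called stayed 0 in every alternative and with each array or pair left out, and 0 of 206 recomputed values of the CaM kinase and calcineurin probe sets passed the threshold. With the replicate block, fixed or random, 0 probe sets were called and no call changed. The Camk2a differences remained 0.21 and 0.12 with SE of 0.20 and 0.26 in the fixed block (limma adjusted p = 0.807 and 0.915). Probe sets with an unadjusted p under 0.05 numbered 199, against 524 with the fixed and 535 with the random block, 491 with no filter, 97 with the filter at the 60th percentile, 368 with array weights and 133 to 429 with arrays left out. Some signs turned: to -0.058 for Camk2a 93660_at and 0.021 for Ppp3ca with array weights, to -0.00669 for Camk2d with cyclic loess, -0.13 with the actin ratio and -0.25 with the Gapdh ratio. Marcksl1 turned to 0.095 and Marcks to -0.014 when the actin ratio was a covariate. List medians moved too. With the actin ratio they were -0.21 for stores and pumps, -0.16 for calcium entry and 0.015 for synaptic partners. The median of PKA and PKC was -0.050 with the Gapdh ratio. Without single arrays or pairs, the median of stores and pumps ran from -0.11 to 0.10. That of the immediate-early genes stayed below 0, at -0.74 to -0.57. With arrays left out the ranges were -0.035 to 0.50 for Camk2a 93659_at, -0.27 to 0.49 for Camk2a 93660_at, -0.029 to 0.17 for Camk2b, -0.092 to 0.37 for Camk2d, 0.15 to 0.35 for Camk4, -0.18 to 0.027 for Ppp3ca, -0.30 to 0.085 for Ppp3cb, -0.0056 to 0.091 for Ppp3r1, -0.063 to 0.84 for Rcan3 and -0.38 to 0.48 for Camk2a minus Camk2b. Camk2d and Camk4 were left out by the filter at the 60th percentile. Of 27 named genes outside these probe sets, 16 moved by over 1.5 times with arrays left out and 12 in another setting, all of them without a call. With the fixed block 8 of 91 pathway genes outside the immediate-early set had an unadjusted p under 0.05 (8.79%, against 7.03% of all probe sets), and without it 1. The cause of these shifts was not tested. With 4 arrays a group and no replicate block, intervals for Camk2a are too wide to exclude moderate changes.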

Other observations

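Other kinases and phosphatases of calcium and cAMP signalling gave small differences. Of 19 measured PKA, PKC, adenylyl cyclase and phosphodiesterase genes, 7 lay below 0, with a median of 0.04 and 0 calls. Prkaca, the alpha catalytic subunit of protein kinase A, was lower in the deprived array of 4 of 4 same-numbered pairs, with means of 1877 ± 439.6 in deprived and 2267 ± 377 in non-deprived cortex (SD, n = 4 each) and a difference of -0.28 ± 0.18 (SE). Adcy8, a calmodulin-stimulated adenylyl cyclase, was higher in 4 of 4 pairs, at 544 ± 63.3 in deprived and 446 ± 126 in non-deprived cortex, a difference of 0.32 ± 0.22 (SE). Prkaca and Adcy8 were named for the smallest p of this list, so their pair counts are descriptions only. Neither passed in limma (unadjusted p = 0.136 and 0.163, adjusted p = 0.995 for each). With the replicate number as a block the unadjusted p was 0.0169 for Prkaca and 0.0579 for Adcy8, and neither passed adjustment (0.703 and 0.705). Fitted with the actin ratio, the Prkaca difference was -0.034. The Adcy8 difference was 0.098 without non-deprived replicate 1, whose signal was 265 against 471 to 558 in the other non-deprived arrays.

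Of 13 other serine/threonine phosphatase genes, 7 lay below 0, with a median of -0.00610 and 0 calls. Those with the smallest p were Ppp2r1b, a scaffold subunit of protein phosphatase 2A, at 0.48 ± 0.29, and its regulatory subunit gene Ppp2r2a, at 0.24 ± 0.21 (SE). With the Gapdh ratio as a covariate they lay at 0.074 and 0.060, and with arrays left out Ppp2r1b ran from 0.25 to 0.76 and Ppp2r2a from 0.14 to 0.36. Both were dim, with mean signals of 164 and 181 in deprived and 111 and 150 in non-deprived cortex.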
